A study of Mus musculus with 11 samples.

Results

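Leukocyte adhesion molecules and integrins were followed in airway RNA of mice with an asthma exacerbation. The 10 genes are Vcam1, Icam1, Icam2, Sele, Selp, Selplg, Itgb2, Itgal, Itga4 and Itga5. They were chosen by name as the Ensembl identifiers with these symbols among 21899 genes, with no rule on their values. Earlier results of these data were known when they were chosen. All wild-type mice were male BALB/c of 6 to 8 weeks. The PBS group, with 3 libraries, was not sensitized and received PBS alone. The OVA/LPS/Vehicle group, with 4 libraries, was sensitized with ovalbumin (OVA) and alum on days 0 and 7, received OVA through the nose on days 14 to 17 (5 µg) and lipopolysaccharide (LPS, 50 ng) on days 19 and 21, and was given vehicle into the trachea on days 21 to 23. The OVA/LPS/GGsTop group, with 4 libraries, went through the same protocol with GGsTop, an inhibitor of γ-glutamyl transferase, at 0.5 mg/kg in place of vehicle. Tissue was taken on day 25. The libraries of the vehicle group carry the numbers 12, 34, 56 and 78, and whether these stand for pooled mice is not stated. Nothing in the labels says that libraries of a group came from separate mice, so p-values measure the spread between these libraries, which may be technical.

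Leukocytes leave the blood in steps. Selectins (Sele, Selp) on activated endothelium catch rolling cells through the carbohydrate-bearing ligand PSGL-1, encoded by Selplg. Integrins on the leukocyte, above all LFA-1 (Itgal with Itgb2) and VLA-4 (Itga4 with Itgb1), then hold the cell on the immunoglobulin-type molecules ICAM-1, ICAM-2 and VCAM-1. Itga5 pairs with Itgb1 to form the fibronectin receptor, which is carried by fibroblasts, smooth muscle and endothelium as well as by leukocytes. Cytokines such as TNF and IL-1 are known to induce Icam1, Vcam1, Sele and Selp, and IL-4 to induce Vcam1. Icam2, in contrast, is carried by resting endothelium.

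Levels were deposited as FPKM, fragments scaled to exon length in kilobases and to the sequencing depth of the library. The libraries held 14513135 to 18632382 fragments, as implied by steps in the FPKM. The labels name trachea, whereas the methods describe airway tissue dissected free of trachea and parenchyma. The summed level of 8 cartilage markers ranged from 0.727 to 80.5 FPKM over the libraries, and that of 8 markers of alveolar epithelium from 4810 to 16729 FPKM, with none of either list at 0 throughout a group. Values also depended on the share of G and C bases (GC content) of a gene in a way that differed between libraries. The slope of log2 level on GC content, per 10 points, was 0.0484 and 0.0611 in PBS 2 and PBS 1, -0.261 to -0.190 in OVA/LPS/Vehicle and 0.0464 to 0.108 in OVA/LPS/GGsTop, and library PBS 3 stood apart at 0.533. Fold changes across genes also followed GC content, with a Spearman rho of -0.593 in OVA/LPS/Vehicle against PBS and 0.624 in OVA/LPS/GGsTop against OVA/LPS/Vehicle over 13987 genes, which are not independent replicates. The slopes and the treatments cannot be told apart, so each fold change of the 10 genes that passed a test is given also after a correction for GC content, in which a smooth curve on GC content was subtracted in each library.

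In OVA/LPS/Vehicle against PBS, 2 of the 10 genes were lower and none was higher. These were Icam1 (log2 fold change of FPKM + 1 -1.16 ± 0.24 SE, adjusted p = 0.00662, limma) and Itga5 (-0.68 ± 0.09, adjusted p = 0.00337, limma). With GGsTop against vehicle, Itga5 was higher (0.64 ± 0.09, adjusted p = 0.00842, limma) and Vcam1 was lower (-0.47 ± 0.11, adjusted p = 0.0331, limma). Between OVA/LPS/GGsTop and PBS, none of the 10 genes passed limma's test, nor the voom test on the fragments, and 3 of them had an unadjusted p under 0.05. The selectins, Selplg, Icam2, Itgb2, Itgal and Itga4 passed in no comparison. The 2 lower genes in OVA/LPS/Vehicle against PBS compare with 38% of 14004 genes tested that were called in either direction and 22.1% that were called lower. With GGsTop against vehicle the shares of all genes were 8.71% in either direction, 6.9% higher and 1.81% lower, and for OVA/LPS/GGsTop against PBS 2.88%. The comparisons share libraries and are not independent of each other.

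After the GC correction the call changed for Vcam1 in each of the 3 comparisons and for Itga5 in 1 of them. In OVA/LPS/Vehicle against PBS, Icam1 (-0.90, adjusted p = 0.0263, limma) and Itga5 (-0.35, adjusted p = 0.0236, limma) remained lower and Vcam1 became lower (-0.50, adjusted p = 0.0264, limma), beside 20.8% of all genes called. With GGsTop against vehicle none of the 10 passed limma's test after it, 1 of them had an unadjusted p under 0.05, and 0.4% of all genes were called. Against PBS, the OVA/LPS/GGsTop group was lower for Vcam1 (-0.64, adjusted p = 0.0242, limma), beside 4.25% of all genes. When library PBS 3 was left out as well, none of the 10 passed limma's test in OVA/LPS/Vehicle against PBS (3 at an unadjusted p under 0.05) or in OVA/LPS/GGsTop against PBS (1 at an unadjusted p under 0.05).

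**Figure D1:**
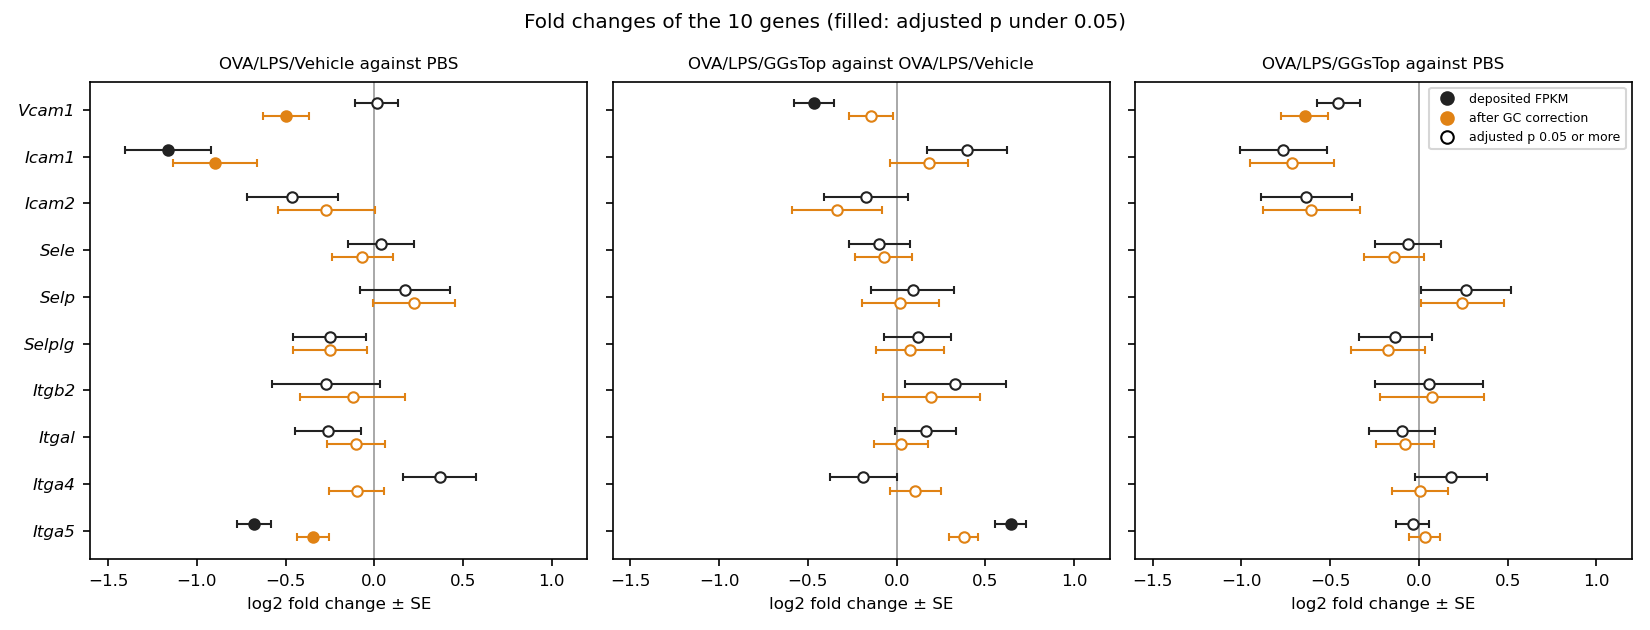
Log2 fold change of FPKM + 1 (x axis) with its standard error for each of the 10 genes (y axis) in the 3 comparisons, from the deposited FPKM (black) and after the GC correction (orange), with filled points at an adjusted p under 0.05. Icam1 and Itga5 are filled in both colours at the left, and Itga5 and Vcam1 are filled in black alone in the middle panel.

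**Figure D2:**
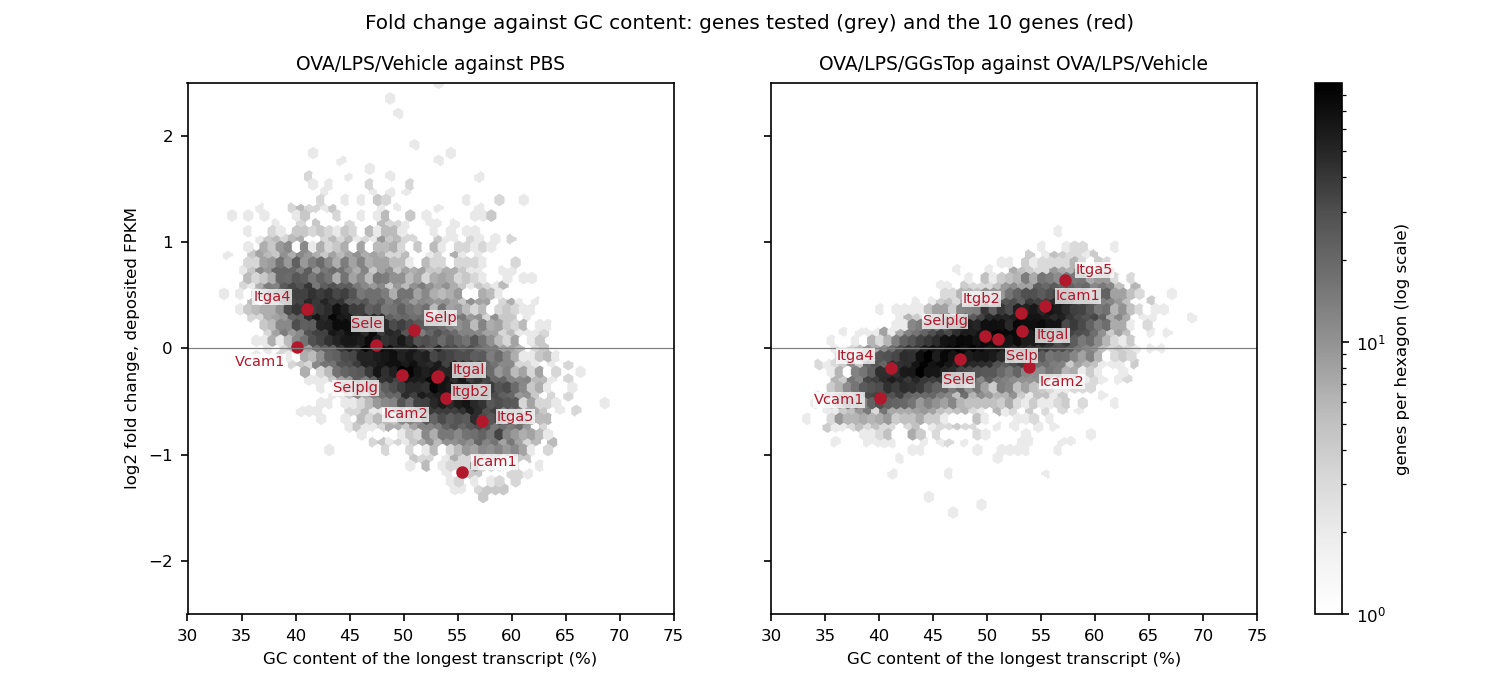
Log2 fold change of FPKM + 1 (y axis, with a few genes beyond its limits) against the GC content of the longest transcript in percent (x axis) for the genes tested (grey hexagons, log colour scale) and the 10 genes (red points). The grey cloud slopes down in OVA/LPS/Vehicle against PBS and up in OVA/LPS/GGsTop against OVA/LPS/Vehicle, with Vcam1 (40.1% GC) at the 6.08th and Itga5 (57.3% GC) at the 87.4th percentile of GC content.

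The order of the levels was much alike in the 3 groups, with Icam2 first and Selp and Sele last in each. In the PBS group the mean FPKM were 95.9 for Icam2, 86.1 for Icam1, 48.0 for Itgb2, 23.8 for Itga5, 12.7 for Itgal, 11.6 for Selplg, 9.73 for Vcam1, 3.18 for Itga4, 0.821 for Selp and 0.774 for Sele. Among neighbours in this order the ranges of the PBS libraries overlapped between Icam2 and Icam1, Icam1 and Itgb2, Itgal and Selplg, Selplg and Vcam1, and Selp and Sele. In OVA/LPS/Vehicle, Itgb2 stood above Icam1, with means of 40.7 and 36.2 FPKM and overlapping ranges.

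**Figure D3:**
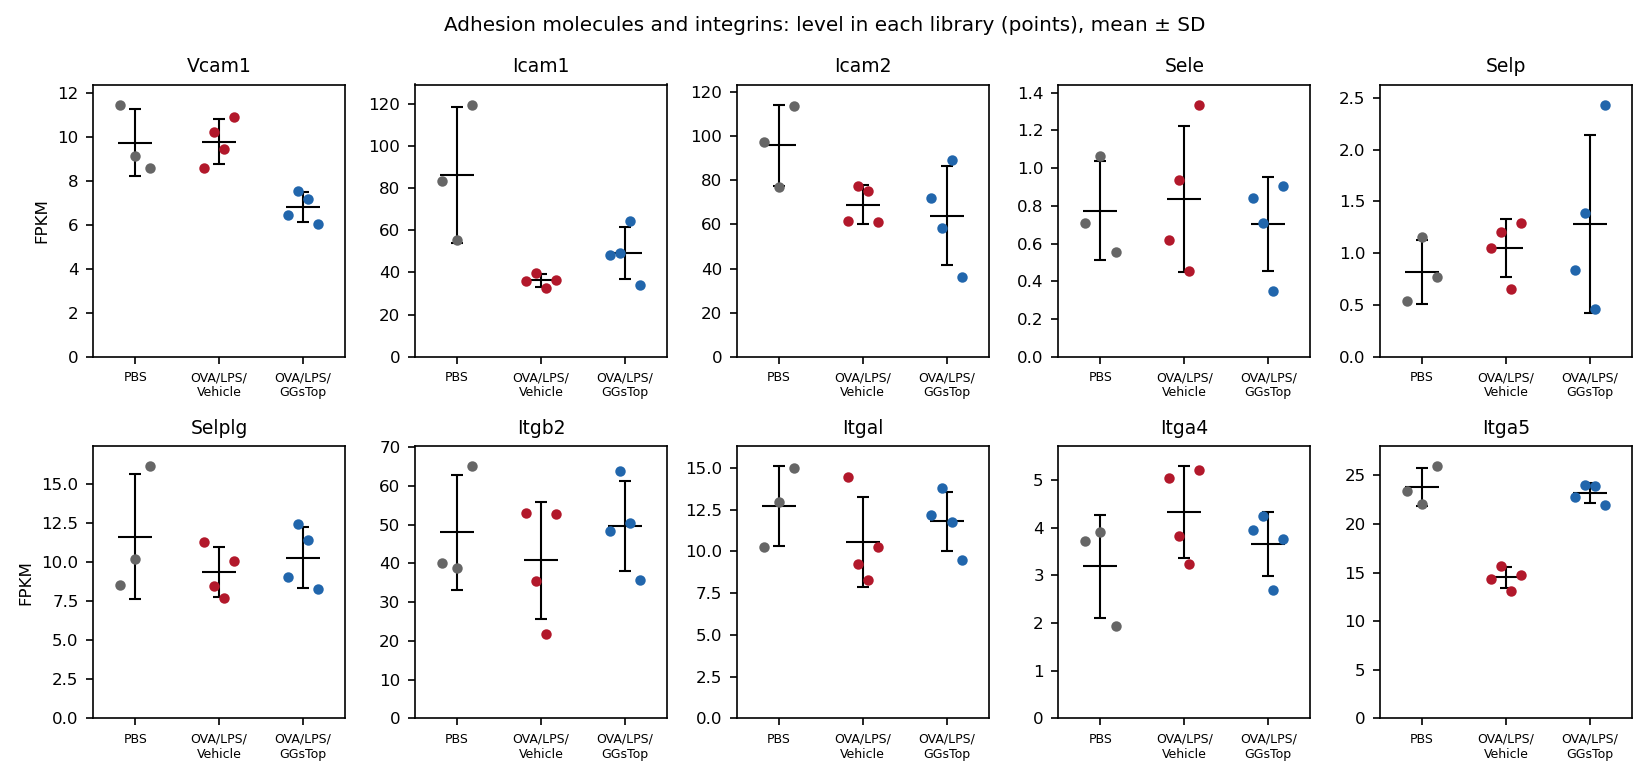
FPKM (y axis, from 0 and scaled per gene) of the 10 genes in each library (points) with the mean and SD of each of the 3 groups (x axis). Itga5 lies at 13.1 to 15.7 FPKM in OVA/LPS/Vehicle and at 21.9 to 25.9 FPKM in the other groups, and Vcam1 lies lowest in OVA/LPS/GGsTop.

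The bases before the transcription start are shown for Icam1 and Itga5, which were lower in OVA/LPS/Vehicle, and for Sele, the member with the lowest mean level in each group. They were read from RefSeq on GRCm38.p6, which had an entry for 5 of the 10 genes (Icam1, Sele, Selp, Itga4 and Itga5). Each run is the 250 bases before the start of the gene on its own strand, at chr9:21015690-21015939 (+) for Icam1, chr1:164047984-164048233 (+) for Sele and chr15:103366792-103367041 (-) for Itga5. Capitals mark matches on either strand to GGNNNTTCC, the short core of the NF-κB motif, in which N is any base.
Icam1: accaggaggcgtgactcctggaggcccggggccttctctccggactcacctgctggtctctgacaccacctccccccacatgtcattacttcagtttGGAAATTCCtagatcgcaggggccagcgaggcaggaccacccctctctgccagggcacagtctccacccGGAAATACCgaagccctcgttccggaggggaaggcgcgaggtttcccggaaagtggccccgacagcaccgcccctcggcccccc
Sele: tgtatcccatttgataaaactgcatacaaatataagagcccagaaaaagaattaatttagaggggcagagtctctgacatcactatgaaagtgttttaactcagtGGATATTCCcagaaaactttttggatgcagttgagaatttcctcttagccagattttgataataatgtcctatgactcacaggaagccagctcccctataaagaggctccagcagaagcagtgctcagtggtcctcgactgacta
Itga5: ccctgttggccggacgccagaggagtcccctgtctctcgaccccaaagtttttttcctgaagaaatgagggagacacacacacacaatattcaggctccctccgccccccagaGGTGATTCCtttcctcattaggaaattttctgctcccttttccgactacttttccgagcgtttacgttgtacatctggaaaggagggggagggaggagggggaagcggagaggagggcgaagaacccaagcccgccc
The match of Icam1 at 153 to 145 bases before the start reads GGAAATTCC and matches on both strands, and a further match on the opposite strand, GGAAATACC, lies at 84 to 76 bases. Sele holds GGATATTCC at 145 to 137 bases and Itga5 holds GGTGATTCC at 137 to 129 bases before the start. Of the 5 entries 4 held a match, Itga4 being without, and so did 15.7% of the 32851 promoters of the same length in the table. These matches describe the letters alone.

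E-selectin and P-selectin transcripts were near the lower limit of the assay. Sele rested on 16 to 65 fragments per library and Selp on 32 to 159. Sele, which is made by cytokine-activated endothelium, was at 0.707, 1.06 and 0.553 FPKM in PBS 1 to 3, at 0.620, 0.934, 0.452 and 1.34 in OVA/LPS/Vehicle 12, 34, 56 and 78, and at 0.844, 0.710, 0.348 and 0.905 in OVA/LPS/GGsTop 1 to 4. The 3 groups overlapped, with the highest value in OVA/LPS/Vehicle 78 and the lowest in OVA/LPS/GGsTop 3. Sele gave log2 fold changes of 0.04 ± 0.19 SE in OVA/LPS/Vehicle against PBS and -0.10 ± 0.17 in OVA/LPS/GGsTop against OVA/LPS/Vehicle. At this depth a change of the size of these errors was not detectable.

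Selp, stored in endothelial cells and platelets, was at 0.542, 1.155 and 0.766 FPKM in PBS 1 to 3, at 1.05, 1.204, 0.654 and 1.29 in OVA/LPS/Vehicle, and at 0.843, 1.39, 0.460 and 2.43 in OVA/LPS/GGsTop. The OVA/LPS/GGsTop group had both the lowest and the highest library, numbers 3 and 4. The log2 fold change of Selp was 0.17 ± 0.25 SE in OVA/LPS/Vehicle against PBS and 0.09 ± 0.23 in OVA/LPS/GGsTop against OVA/LPS/Vehicle, with an adjusted p of 0.599 and 0.82 (limma). The ratios of its mean FPKM, without the added 1, were 1.28 and 1.22.

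Selplg, the gene of the selectin ligand on leukocytes, was at 8.55, 10.2 and 16.1 FPKM in PBS 1 to 3, at 11.3, 8.47, 7.68 and 10.04 in OVA/LPS/Vehicle, and at 9.06, 12.4, 11.4 and 8.26 in OVA/LPS/GGsTop. The groups overlapped, and PBS 3 was the highest library. Its log2 fold change was -0.25 ± 0.21 SE in OVA/LPS/Vehicle against PBS, and -0.01 without PBS 3. With GGsTop against vehicle it was 0.12 ± 0.19, with an adjusted p of 0.702 (limma).

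Icam1 showed the largest fall of the 10 genes in OVA/LPS/Vehicle. Icam1, the ligand of LFA-1 and Mac-1, stood at 83.4, 55.3 and 119.5 FPKM in PBS 1 to 3, at 35.9, 39.8, 32.6 and 36.5 in OVA/LPS/Vehicle, and at 48.4, 49.2, 64.5 and 34.2 in OVA/LPS/GGsTop. Each OVA/LPS/Vehicle library lay below each PBS library, the ratio of the mean FPKM being 0.421. Of the OVA/LPS/GGsTop libraries 3 lay above all OVA/LPS/Vehicle libraries, and number 4 lay among them. The PBS libraries themselves differed by a wide margin, with PBS 3 the highest. The fall of Icam1 against PBS was called with each of the 7 libraries of the comparison left out in turn, and without PBS 3 it was -0.89 (adjusted p = 0.0238, limma). With GGsTop, Icam1 differed from OVA/LPS/Vehicle by 0.40 ± 0.23 SE (adjusted p = 0.247, limma) and from PBS by -0.76 ± 0.24 on the log2 scale (adjusted p = 0.113, limma). Against PBS it was called without PBS 2 (-1.04, adjusted p = 0.0164, limma). The summed alveolar markers, 10434 to 16729 FPKM in PBS and 5432 to 8923 in OVA/LPS/Vehicle, were also highest in PBS 3. They were lowest in OVA/LPS/GGsTop 4 (4810 FPKM), where Icam1 stood at 34.2 FPKM. Icam1 was lowest in OVA/LPS/Vehicle 56 (32.6 FPKM), with an alveolar sum of 6490 FPKM. The part of alveolar tissue in the values of Icam1 was not tested.

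Icam2, a constitutive ligand of LFA-1 on endothelium, stood at 97.4, 76.9 and 113 FPKM in PBS 1 to 3, at 61.5, 77.5, 75.3 and 61.1 in OVA/LPS/Vehicle, and at 72.1, 58.3, 89.2 and 35.9 in OVA/LPS/GGsTop. The lowest PBS library lay just below the highest OVA/LPS/Vehicle library, and OVA/LPS/GGsTop spanned the widest range with number 4 at its foot. The log2 fold change of Icam2 was -0.46 ± 0.26 SE in OVA/LPS/Vehicle against PBS (adjusted p = 0.168, limma) and -0.17 ± 0.24 in OVA/LPS/GGsTop against OVA/LPS/Vehicle (adjusted p = 0.651, limma).

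Vcam1, the ligand of VLA-4, stood at 11.5, 9.15 and 8.57 FPKM in PBS 1 to 3, at 8.57, 10.2, 9.43 and 10.9 in OVA/LPS/Vehicle, and at 6.45, 7.54, 7.17 and 6.04 in OVA/LPS/GGsTop. Each OVA/LPS/GGsTop library lay below every other library, with a ratio of mean FPKM of 0.695 to OVA/LPS/Vehicle and 0.699 to PBS, and the other groups overlapped. The gene rested on 793 to 1617 fragments per library. The fall in OVA/LPS/GGsTop against OVA/LPS/Vehicle was called without OVA/LPS/Vehicle 12, and was lost without OVA/LPS/Vehicle 34, 56 or 78 or any 1 of the 4 OVA/LPS/GGsTop libraries, with adjusted p-values up to 0.0985 and a log2 fold change between -0.52 and -0.42 (limma). The GC content of Vcam1, 40.1%, is at the 6.08th percentile of the genes tested, and after the GC correction the fall was -0.15 (adjusted p = 0.521, limma). Against PBS the fall was -0.45 ± 0.12 SE (adjusted p = 0.0679, limma), and it was called without PBS 2 (adjusted p = 0.0484, limma).

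Among the 10 genes, those whose FPKM did not overlap between groups were Icam1 and Itga5 below PBS in OVA/LPS/Vehicle, Itga5 above and Vcam1 below OVA/LPS/Vehicle in OVA/LPS/GGsTop, and Vcam1 below PBS in OVA/LPS/GGsTop. These counts of 2, 2 and 1 compare with 44.1%, 29.7% and 14.8% of the genes tested.

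Itgb2, the β chain of all leukocyte β2 integrins, stood at 40.0, 38.9 and 65.1 FPKM in PBS 1 to 3, at 53.1, 35.4, 21.9 and 52.6 in OVA/LPS/Vehicle, and at 48.3, 64.0, 50.5 and 35.6 in OVA/LPS/GGsTop. The groups overlapped, and OVA/LPS/Vehicle 56 was the lowest library. Its log2 fold change was -0.27 ± 0.31 SE in OVA/LPS/Vehicle against PBS (adjusted p = 0.49, limma) and 0.33 ± 0.28 in OVA/LPS/GGsTop against OVA/LPS/Vehicle (adjusted p = 0.445, limma). The standard errors of Itgb2 were the largest among the 10 genes.

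Itgal, the α chain of LFA-1, stood at 10.2, 12.9 and 15.0 FPKM in PBS 1 to 3, at 14.5, 9.26, 8.29 and 10.3 in OVA/LPS/Vehicle, and at 12.2, 13.8, 11.8 and 9.47 in OVA/LPS/GGsTop. The groups overlapped. Its log2 fold change was -0.26 ± 0.18 SE in OVA/LPS/Vehicle against PBS (adjusted p = 0.278, limma) and 0.16 ± 0.17 in OVA/LPS/GGsTop against OVA/LPS/Vehicle (adjusted p = 0.542, limma). The ratio of Itgal to Itgb2 FPKM was 0.273 ± 0.053 (SD, n = 3) in PBS, 0.277 ± 0.076 (n = 4) in OVA/LPS/Vehicle and 0.242 ± 0.022 (n = 4) in OVA/LPS/GGsTop, with overlapping ranges.

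Itga4, the α chain of VLA-4, stood at 3.71, 3.90 and 1.94 FPKM in PBS 1 to 3, at 5.05, 3.82, 3.23 and 5.21 in OVA/LPS/Vehicle, and at 3.95, 4.24, 2.69 and 3.76 in OVA/LPS/GGsTop. The groups overlapped, and PBS 3 was the lowest library. Its GC content of 41.1% is near that of Vcam1, and its fold change in OVA/LPS/Vehicle against PBS was 0.37 ± 0.20 SE as deposited (adjusted p = 0.17, limma), 0.13 without PBS 3 and -0.10 after the GC correction.

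Itga5, the α chain of the fibronectin receptor, had the smallest standard errors of the 10 genes. It stood at 23.4, 22.0 and 25.9 FPKM in PBS 1 to 3, at 14.3, 15.7, 13.1 and 14.8 in OVA/LPS/Vehicle, and at 22.7, 24.0, 23.95 and 21.9 in OVA/LPS/GGsTop. Each OVA/LPS/Vehicle library lay below each library of the other groups, and the range of OVA/LPS/GGsTop overlapped that of PBS. The ratio of mean FPKM was 0.609 for OVA/LPS/Vehicle to PBS and 1.60 for OVA/LPS/GGsTop to OVA/LPS/Vehicle. Against PBS, OVA/LPS/GGsTop differed by -0.04 ± 0.09 SE on the log2 scale (adjusted p = 0.854, limma). The fall and the rise were called with each library of their comparison left out, 7 and 8 in number. The GC content of Itga5, 57.3%, is at the 87.4th percentile of the genes tested. After the GC correction the fall was -0.35 (adjusted p = 0.0236, limma) and the rise 0.38 (adjusted p = 0.0597, limma). Without PBS 3 the corrected fall was -0.37 (adjusted p = 0.065, limma). The corrected rise compares groups that do not hold PBS 3 and so stayed at 0.38. Its adjusted p became 0.0472 (limma). The groups share 1 estimate of the spread and p-values are adjusted over all genes, so leaving out PBS 3 can move this value. Smooth muscle also carries Itga5, and its markers are given here. The summed level of 8 of them was 625.04 to 824 FPKM in PBS, 507 to 554 in OVA/LPS/Vehicle and 501 to 1208 in OVA/LPS/GGsTop, with none at 0 throughout a group. Of the 7 tested, 6 lay below 0 in OVA/LPS/Vehicle against PBS and 2 were lower by limma's test, Actg2 (-0.80, adjusted p = 0.0159, limma) and Smtn (-0.54, adjusted p = 0.0165, limma), both named after their values were seen. With GGsTop against vehicle all 7 lay above 0 and 1 was higher, Smtn (0.67, adjusted p = 0.0222, limma). After the GC correction Actg2 alone was called (-0.67, adjusted p = 0.0422, limma). In OVA/LPS/GGsTop 1 to 4 the smooth muscle sum was 650, 667, 501 and 1208 FPKM. Itga5 stood at 22.7, 24.0, 23.95 and 21.9 FPKM in the same libraries. The part of smooth muscle in the values of Itga5 was not tested.

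The ratio of Itga5 to its partner chain separated OVA/LPS/Vehicle from the other groups, and that of Itga4 to the same chain did not. The ratio of Itga5 to its partner Itgb1 was 0.138 ± 0.038 (SD, n = 3) in PBS, 0.0658 ± 0.0077 (n = 4) in OVA/LPS/Vehicle and 0.143 ± 0.010 (n = 4) in OVA/LPS/GGsTop, and OVA/LPS/Vehicle lay below the other groups in each library. The ratio of Itga4 to Itgb1 was 0.0136 to 0.0214 in PBS, 0.0138 to 0.0261 in OVA/LPS/Vehicle and 0.0147 to 0.0263 in OVA/LPS/GGsTop, with overlapping ranges. The ratio of Itga5 to Itga4, the α chains that share Itgb1, was 2.84 to 4.11 in OVA/LPS/Vehicle, 5.64 to 13.4 in PBS and 5.67 to 8.89 in OVA/LPS/GGsTop. Against fibronectin (Fn1), its matrix ligand, Itga5 gave 0.479 ± 0.028 in PBS, 0.467 ± 0.151 in OVA/LPS/Vehicle and 0.477 ± 0.147 in OVA/LPS/GGsTop, with overlapping ranges. Among the ligands, the ratio of Icam1 to Vcam1 was 6.05 to 13.9 in PBS, 3.35 to 4.18 in OVA/LPS/Vehicle and 5.67 to 9.002 in OVA/LPS/GGsTop. These ratios of genes with unlike GC content carry the GC slopes of the libraries, and no test was made on them.

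Cell markers moved beside the adhesion molecules. In bulk tissue, fewer cells of a type and less RNA per cell cannot be told apart. Of 14 endothelial markers, led by Cldn5, Cdh5 and Eng, all lay below 0 in OVA/LPS/Vehicle against PBS and 8 were lower by limma's test (1 after the GC correction), with a median log2 fold change of -0.71 against -0.01 over all genes. Their summed level was 1451 to 2760 FPKM in PBS, 1055 to 1265 in OVA/LPS/Vehicle and 785 to 1842 in OVA/LPS/GGsTop, and no endothelial marker was at 0 throughout a group. Of 8 alveolar markers 3 were lower in OVA/LPS/Vehicle against PBS, with sums of 10434 to 16729 FPKM in PBS, 5432 to 8923 in OVA/LPS/Vehicle and 4810 to 12220 in OVA/LPS/GGsTop. Of 10 airway epithelial markers 4 were higher, with sums of 30873 to 38584, 35272 to 53862 and 42320 to 48163 FPKM in the same order. Of all genes tested, 15.9% were called higher and 22.1% lower in OVA/LPS/Vehicle against PBS. The sum of 10 markers shared by leukocytes was 241 to 297 FPKM in PBS, 211 to 345 in OVA/LPS/Vehicle and 176 to 268 in OVA/LPS/GGsTop, and 9 of them lay below 0 in OVA/LPS/GGsTop against OVA/LPS/Vehicle with 1 called. The sum of 10 neutrophil markers was 198 to 361 FPKM in PBS, 486 to 664 in OVA/LPS/Vehicle and 220 to 608 in OVA/LPS/GGsTop, and most of the difference lay in 1 gene. This was Ltf, the lactoferrin of neutrophil granules and of glands, at 67.2 ± 96.0 FPKM (SD, n = 3), 339.7 ± 136.0 (n = 4) and 176 ± 193 (n = 4), and without it the sums were 112 to 358, 143 to 267 and 156 to 307 FPKM. Of the 9 neutrophil markers tested in OVA/LPS/Vehicle against PBS, the granule genes Ltf, Ngp and Camp were higher, Csf3r (-0.86, adjusted p = 0.0456, limma) and Mmp9 (-0.94, adjusted p = 0.0219, limma) were lower, and S100a8 and S100a9 stood at 0.32 and 0.17 without passing. The sum of 8 eosinophil markers was 102 to 153, 64.0 to 192 and 97.2 to 184 FPKM, and 22.3 to 35.6, 10.97 to 31.4 and 17.2 to 39.9 FPKM without Ear2, with Epx at 0 throughout PBS. With GGsTop against vehicle all 7 eosinophil markers tested lay above 0, with a median log2 fold change of 0.45. None of the 7 was called there by limma or voom, with 2 at an unadjusted p under 0.05. Prg2, a granule protein of eosinophils, was at 0.313 ± 0.230 FPKM (SD, n = 3) in PBS, 0.986 ± 0.445 (n = 4) in OVA/LPS/Vehicle and 1.97 ± 0.31 (n = 4) in OVA/LPS/GGsTop, and alone of 7 eosinophil markers tested it was higher than PBS in OVA/LPS/Vehicle (0.58, adjusted p = 0.0303, limma) and in OVA/LPS/GGsTop (1.19, adjusted p = 0.0144, limma), also after the GC correction. Single markers of these lists were named after their values were seen. The part of these cells in the results on the 10 genes was not tested.

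**Figure D4:**
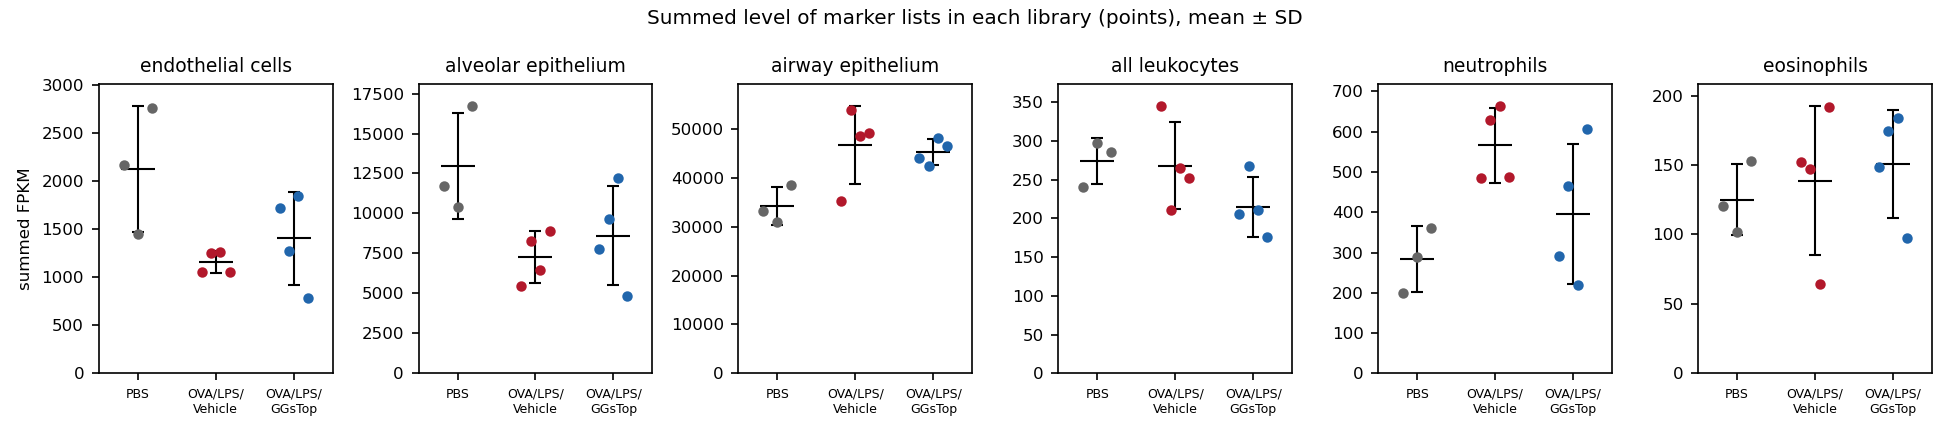
Summed FPKM (y axis, from 0 and scaled per list) of 6 cell marker lists in each library (points) with the mean and SD of each group (x axis). Endothelial and alveolar sums lie lower in OVA/LPS/Vehicle than in PBS, and the leukocyte sums of the 3 groups overlap.

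Set against the endothelial sum of the same library, Icam2 and Vcam1 separated other groups than their plain levels did. Icam1 separated the same groups, and Sele and Selp overlapped on both scales. Icam1 made up 3.82 to 4.33% of the sum in PBS, 2.58 to 3.46% in OVA/LPS/Vehicle and 2.81 to 4.36% in OVA/LPS/GGsTop, so that OVA/LPS/Vehicle stayed below PBS. Icam2 went the other way and made up 4.11 to 5.30% in PBS, 5.80 to 6.20% in OVA/LPS/Vehicle and 4.19 to 4.84% in OVA/LPS/GGsTop, with OVA/LPS/Vehicle above both other groups in each library. Vcam1 made up 0.310 to 0.631% in PBS, 0.745 to 1.03% in OVA/LPS/Vehicle and 0.376 to 0.770% in OVA/LPS/GGsTop, above PBS in OVA/LPS/Vehicle and overlapping between OVA/LPS/Vehicle and OVA/LPS/GGsTop. Thus 3 of 5 genes did not overlap in OVA/LPS/Vehicle against PBS, beside 48.3% of the genes tested, and 1 of 5 in OVA/LPS/GGsTop against OVA/LPS/Vehicle, beside 5.32%. Icam1 and Vcam1 were not shown here to come from endothelium alone, so their shares need not be levels per endothelial cell. No test was made on these shares.

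Set against the leukocyte sum, Selplg, Itgal and Itga5 did not overlap in OVA/LPS/GGsTop against OVA/LPS/Vehicle. Selplg made up 2.904 to 4.02% in OVA/LPS/Vehicle and 4.40 to 5.41% in OVA/LPS/GGsTop. Itgal made up 3.13 to 4.39% and 5.16 to 5.92%. Itga5 made up 4.16 to 7.46% and 8.98 to 12.5%, though its level is not that of leukocytes alone. These 3 of 5 genes stand beside 17.8% of the genes tested, and in OVA/LPS/Vehicle against PBS 0 of 5 did not overlap, beside 19.8%. Itgb2 at 15.3 ± 5.3% (SD, n = 4) and 22.9 ± 1.8% (n = 4), and Itga4 at 1.64 ± 0.37% and 1.73 ± 0.38%, overlapped between OVA/LPS/Vehicle and OVA/LPS/GGsTop. Lymphocyte markers moved beside the leukocyte sum. The sum of 7 B cell markers was 103 to 124 FPKM in PBS, 40.1 to 119 in OVA/LPS/Vehicle and 35.5 to 69.5 in OVA/LPS/GGsTop, and that of 8 T cell markers was 28.8 to 50.1, 22.7 to 89.8 and 18.6 to 31.0 FPKM. The highest T cell sum and the highest leukocyte sum (345 FPKM) were both those of OVA/LPS/Vehicle 12. In that library the sum of 8 thymocyte markers was 60.3 FPKM. It was 9.14, 14.2 and 11.4 FPKM in OVA/LPS/Vehicle 34, 56 and 78, 7.93 to 16.5 in PBS and 8.80 to 10.7 in OVA/LPS/GGsTop. Rag2, a thymocyte marker, was at 0 throughout OVA/LPS/GGsTop. With GGsTop against vehicle all 7 B cell and all 8 T cell markers lay below 0. None of them was called by limma or voom, with 3 and 1 at an unadjusted p under 0.05. The sum of 10 macrophage and monocyte markers was 146 to 210, 144 to 275 and 199 to 289 FPKM, with 1 higher and 1 lower in the same comparison. Shares of either marker sum carry the GC slopes of the libraries where gene and markers differ in GC content, and the part of these cells and of the slopes in the shares was not tested.

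**Figure D5:**
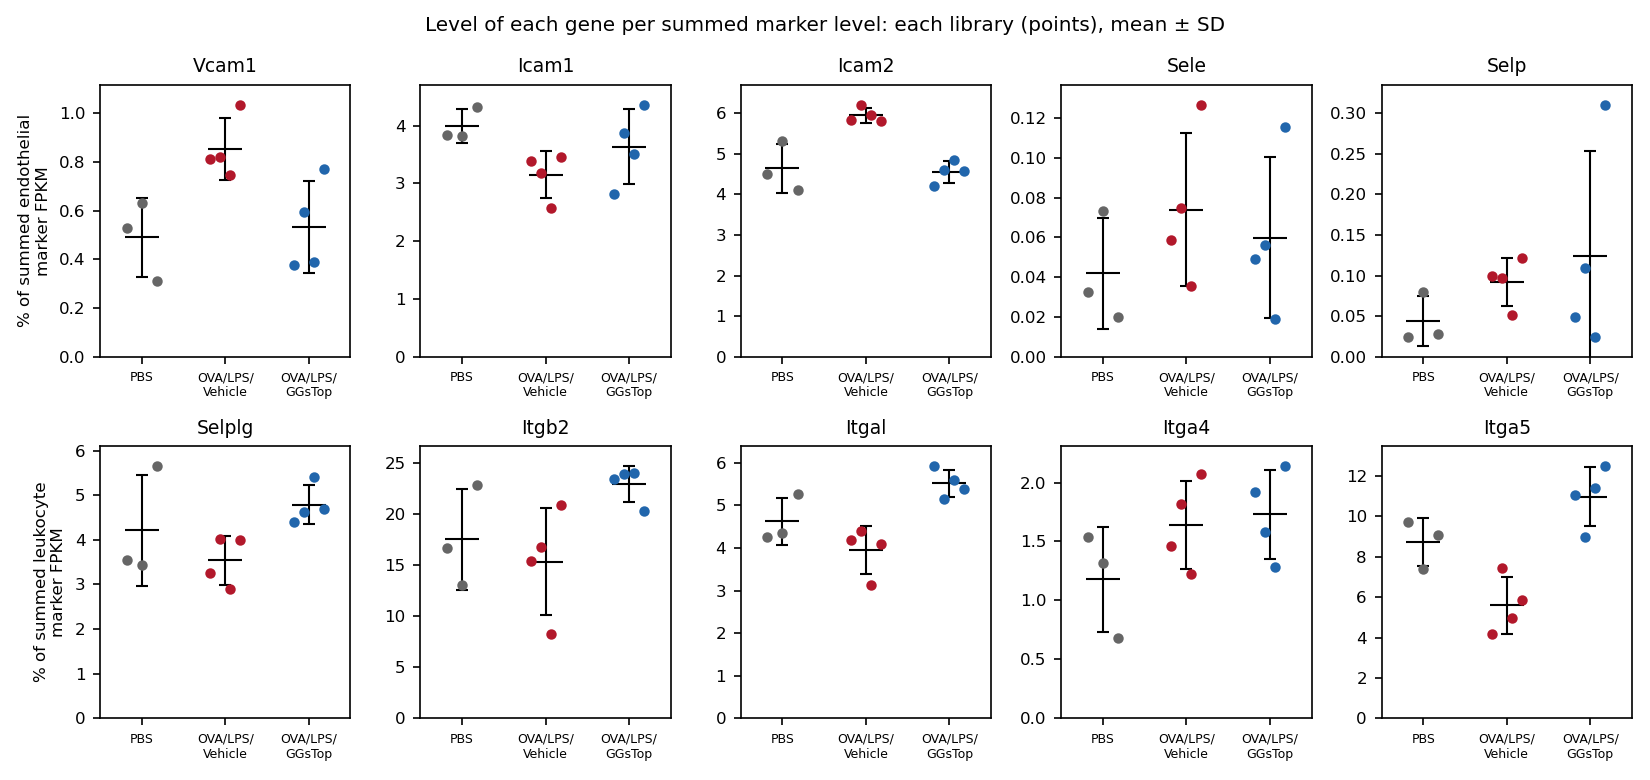
Level of each gene as a percentage of the summed FPKM of 14 endothelial markers (upper row) or 10 leukocyte markers (lower row) in each library (points), with the mean and SD of each group (x axis), where an SD bar that would pass below 0 is cut there. Icam2 is highest in OVA/LPS/Vehicle at 5.80 to 6.20%, and Selplg and Itgal are higher in OVA/LPS/GGsTop than in OVA/LPS/Vehicle.

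The wider adhesion pathway was read from 7 lists of 86 genes, 76 of which were tested. In OVA/LPS/Vehicle against PBS 7 were higher and 16 lower by limma's test, beside 15.9% and 22.1% of all genes, and after the GC correction 3 and 9, beside 7.87% and 12.9%. The share of lower genes is near that of all genes and the share of higher genes is below it, so the counts are not a result about the pathway. The counts of the single lists below stand beside the same shares of all genes. In OVA/LPS/GGsTop against OVA/LPS/Vehicle 3 were higher and 1 lower, beside 6.9% and 1.81% of all genes (none after the GC correction, with 14 at an unadjusted p under 0.05). In OVA/LPS/GGsTop against PBS none passed (16 at an unadjusted p under 0.05, and none by voom), and 1 was lower after the GC correction. Their median log2 fold changes were -0.14, -0.01 and -0.10.

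Of 8 selectins and carriers of selectin ligands none was called in any comparison by limma or voom, with 1 at an unadjusted p under 0.05 in each comparison. Of 11 enzymes that build selectin ligands 1 was higher and 2 were lower in OVA/LPS/Vehicle against PBS. Galnt1 was higher (0.48 ± 0.13 SE, adjusted p = 0.017, limma) and Tpst2 was lower (-0.61 ± 0.21, adjusted p = 0.0392, limma). Neither of them was called after the GC correction. Chst2, a sulfotransferase, fell from 10.2 ± 2.1 FPKM (SD, n = 3) to 5.26 ± 1.16 (n = 4) (-0.84 ± 0.23 SE, adjusted p = 0.0159, limma). Of 11 junction and transmigration molecules 1 was higher, Alcam, and 3 were lower, among them the endothelial molecule Mcam (-0.65 ± 0.16 SE, adjusted p = 0.0109, limma) and the junctional molecule F11r (-0.34 ± 0.10 SE, adjusted p = 0.0237, limma). None of these 4 was called after the GC correction.

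Of 11 other leukocyte integrin subunits Itgav was higher in OVA/LPS/Vehicle against PBS (0.69 ± 0.15 SE, adjusted p = 0.00823, limma) and Itga9 and Itgb7 were lower. Itgb7, the alternative partner of Itga4, stood at -0.53 ± 0.16 SE on the log2 scale (adjusted p = 0.0229, limma) and at -0.19 after the GC correction. Itga9, which forms a subfamily with Itga4, was higher in OVA/LPS/GGsTop against OVA/LPS/Vehicle (0.44 ± 0.10 SE, adjusted p = 0.0287, limma) with 7.18 ± 0.61 and 10.1 ± 1.0 FPKM (SD, n = 4 each). Of 14 integrin activators and adaptors 1 was higher and 3 lower in OVA/LPS/Vehicle against PBS. Rap1a was higher (0.84 ± 0.22 SE, adjusted p = 0.014, limma) and Sharpin was among the lower (-0.37 ± 0.12, adjusted p = 0.0275, limma). Neither of them was called after the GC correction. Talin (Tln1), which switches integrins on from inside the cell, stood at 73.4 ± 15.0 FPKM (SD, n = 3) in PBS, 35.5 ± 3.2 (n = 4) in OVA/LPS/Vehicle and 56.4 ± 4.6 (n = 4) in OVA/LPS/GGsTop. Tln1 fell by 1.01 against PBS (adjusted p = 0.00337, limma) and rose by 0.65 against OVA/LPS/Vehicle (adjusted p = 0.0204, limma), and after the GC correction the fall was called (adjusted p = 0.00817, limma) and the rise was not (adjusted p = 0.0831, limma).

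Of 9 matrix ligands of integrins 8 lay below 0 and 4 were lower in OVA/LPS/Vehicle against PBS, beside 22.1% of all genes called lower. Among the 4 were Lama5, a laminin chain of vessel and airway basement membrane (-1.09 ± 0.18 SE, adjusted p = 0.00366, limma), Emilin1 (-1.16 ± 0.20, adjusted p = 0.00402, limma) and Lamc1 (-0.58 ± 0.10, adjusted p = 0.00413, limma). Each of these 3 stayed lower after the GC correction. Lama5 was higher in OVA/LPS/GGsTop against OVA/LPS/Vehicle (0.87 ± 0.17 SE, adjusted p = 0.0198, limma), with an adjusted p of 0.0755 after the correction. Of 12 inducing cytokines and receptors 3 were higher and 2 lower in OVA/LPS/Vehicle against PBS (2 and 1 after the GC correction). The TNF receptor Tnfrsf1a was lower (-0.81 ± 0.16 SE, adjusted p = 0.00535, limma), while Il13ra1 (1.27 ± 0.31, adjusted p = 0.0112, limma) and Ifngr2 (0.45 ± 0.10, adjusted p = 0.00726, limma) were higher. The other two, named after their values were seen, were the cytokine Il4, at 2.18 ± 1.17 FPKM (SD, n = 3) in PBS and 4.12 ± 0.49 (n = 4) in OVA/LPS/Vehicle (0.76 ± 0.25 SE, adjusted p = 0.0321, limma), and its receptor chain Il4ra, at 39.1 ± 13.6 and 21.2 ± 0.9 FPKM (-0.79 ± 0.22 SE, adjusted p = 0.0169, limma), neither of which was called after the GC correction. Ifngr2 was lower again in OVA/LPS/GGsTop against OVA/LPS/Vehicle (-0.41 ± 0.09 SE, adjusted p = 0.0272, limma). The members of this list stood on both sides of 0, with a median of -0.04 in OVA/LPS/Vehicle against PBS.

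For each of the 10 genes, those with the closest pattern over the 11 libraries were taken by Pearson correlation of log2(FPKM + 1) among the genes tested. Icam1 ran with Col4a2, a chain of basement membrane collagen (r = 0.994), and with Tspan9 (r = 0.989), and Icam2 ran with the endothelial receptor Tek (r = 0.986). Itga5 ran with the focal adhesion protein Zyx (r = 0.990) and with Tnxb (r = 0.980), which are GC-rich like Itga5 (56.6% and 60.7%). Selplg and Itgal both had Laptm5, a lysosomal protein of leukocytes, among their closest (r = 0.948 and 0.928), and Itgal had Itgae, another integrin α chain of T cells, at r = 0.942. Itgb2 ran with the cytokine receptor chain Csf2rb (r = 0.940) and had Siglecf, a lectin of eosinophils and alveolar macrophages, at r = 0.926. Vcam1 was nearest to Snx18 (r = 0.950), Itga4 to Cldn12 (r = 0.920), Selp to Mfsd6 (r = 0.965) and Sele to Stx19 (r = 0.868). Values of a library share its depth, composition and GC slope, and these are the highest of many correlations.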

How the data were processed

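Airway RNA was sequenced after poly-A selection by a service company. The authors deposited FPKM for 21899 genes, with 1 column per library. The submitters' processing notes name mm39, cutadapt 1.15, HISAT2 2.0.5 and HTSeq 0.9.1, and strand is not given in the sources used here. GENCODE M21 on GRCm38 gave a symbol for 21795 identifiers, and 26 symbols shared by several identifiers stayed with the highest mean. FPKM times merged exon length gave whole fragments in each library for 21433 genes (97.9%), within 0.02 fragments plus 0.01% of the value.

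Here log2(FPKM + 1) was compared for 14004 genes, those averaging 0.5 FPKM or more, in 1 fit of all 11 libraries (limma 3.58.1, R 4.3.3, trended variance), whereas the study tested its counts. Two-sided p-values were adjusted over these genes (Benjamini-Hochberg), and calls were made below an adjusted p of 0.05. The 10 members passed the filter, so the permutation test set aside for genes under it was not needed. A GC content of the longest transcript was known for 13987 genes, and the correction used a natural spline with 5 degrees of freedom. Alternatives were another pseudocount, filter, scaling or trend, array weights, limma voom on the recovered fragments, only the 2 groups compared, a replicate block, and each library left out. The deviations of PBS and OVA/LPS/GGsTop libraries of the same number correlated at 0.158, 0.624 and 0.401, the only hint that numbers pair libraries. Members, gene lists and the alternatives were chosen with earlier results of these data known. Genes of pathway lists were named where called, up to 3 per comparison by smallest p, or else the gene with the smallest p, which for 1 list is not reported here; marker genes by mean FPKM; and like genes by the 3 highest correlations. The fit was tested on simulated data. Python 3.11.15 with pandas 2.3.3 and matplotlib 3.10.9 served for tables and plots.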

Additional observations from a re-analysis of the deposited data

How the results depend on the processing

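Icam1 and Itga5 were called lower in OVA/LPS/Vehicle against PBS under each alternative except the GC correction with PBS 3 left out, which was chosen after seeing the data and called 0 members. Of 687 recomputed values, 620 kept their direction and their side of the threshold. Most of them belong to results not called as deposited, which kept their side by staying uncalled. Leaving out a library of the third group, or that group, cannot move a fold change, so the count says little about robustness. In OVA/LPS/GGsTop against OVA/LPS/Vehicle, 2 members were called as deposited, 1 with the same FPKM total in each library, 0 after the GC correction, 1 with that correction and PBS 3 left out, and 1 to 2 with each library left out. With array weights Icam1 was called there too, as was Icam2 in OVA/LPS/Vehicle against PBS. In OVA/LPS/GGsTop against PBS, 0 were called as deposited, 1 with the same total, 2 with array weights, 1 after the GC correction and 0 to 2 with each library left out, the 2 being Vcam1 and Icam1 without PBS 2. Over all genes, 1220 calls in OVA/LPS/GGsTop against OVA/LPS/Vehicle became 24 without OVA/LPS/GGsTop 1 and 3591 without PBS 3. The cause of these changes was not tested.

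With the numbers 1 to 3 of PBS and OVA/LPS/GGsTop as a replicate block, 0 members were called, as without it in the same 6 libraries, while 62 and 14 genes were called in all. PBS 1 correlated best with OVA/LPS/GGsTop 3 (0.419), not with its own number. The block changed no member's call.

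Reversed values, as log2 fold changes, were in OVA/LPS/Vehicle against PBS Vcam1 -0.15 and Sele -0.041 with the same FPKM total, Vcam1 -0.12 and Selplg 0.047 with array weights, Vcam1 -0.50, Sele -0.067 and Itga4 -0.10 after the GC correction, and Vcam1 -0.37, Sele -0.10, Selplg 0.016, Itgb2 0.084 and Itga4 -0.15 with PBS 3 also left out. In OVA/LPS/GGsTop against OVA/LPS/Vehicle they were Selp -0.10 with array weights and Itga4 0.11 after the GC correction, with or without PBS 3. In OVA/LPS/GGsTop against PBS they were Itgb2 -0.0201 with the same total, Selplg 0.19 and Itgal 0.18 with array weights, Itga5 0.031 after the GC correction, Itgal 0.030, Itga4 -0.013 and Itga5 0.069 with the correction and the replicate block, and Selplg 0.090, Itgal 0.0067, Itga4 -0.047 and Itga5 0.0037 with the correction and without PBS 3. With each library left out, values of both signs ran in OVA/LPS/Vehicle against PBS from -0.065 to 0.13 for Vcam1 and -0.088 to 0.15 for Sele, with GGsTop against vehicle from -0.36 to 0.074 for Icam2, -0.20 to 0.026 for Sele and -0.13 to 0.28 for Selp, and with GGsTop against PBS from -0.15 to 0.051 for Sele, -0.31 to 0.11 for Selplg, -0.073 to 0.29 for Itgb2, -0.23 to 0.021 for Itgal, -0.057 to 0.31 for Itga4 and -0.087 to 0.027 for Itga5. The Icam2 share of the endothelial level differed by -0.02 (log2) between OVA/LPS/GGsTop and PBS and by -0.15 with a geometric mean of the markers. With a minimum mean of 1 FPKM Sele was not tested.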

Other observations

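Among the 10 genes, Icam2 and Selp ran against each other over the 11 libraries (r = -0.864, and -0.909 without PBS 3), while the leukocyte genes Selplg, Itgal and Itgb2 ran together (Selplg with Itgal r = 0.860, Selplg with Itgb2 r = 0.834). The summed endothelial level correlated with Icam1 (r = 0.917) and Icam2 (r = 0.913), and with Vcam1 at r = 0.184. It ran against Selp (r = -0.769) and Sele (r = -0.430), which rested on few fragments. These are descriptions over 11 libraries that share depth, composition and GC slopes.

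The α chain Itgax, which pairs with Itgb2 on dendritic cells and alveolar macrophages, had a ratio to Itgb2 of 0.222 to 0.260 in PBS, 0.360 to 0.440 in OVA/LPS/Vehicle and 0.372 to 0.451 in OVA/LPS/GGsTop. The PBS libraries lay below all others. Itgam, the α chain of Mac-1, had a ratio to Itgb2 of 0.0210 to 0.0505, 0.0365 to 0.0839 and 0.0345 to 0.0766 in the same order, with overlapping ranges.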
